A study of Homo sapiens with 6 samples.

Results

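The genes that place, remove and read acetyl marks on histones were followed in A375, an established human melanoma cell line, by RNA sequencing of cells sorted on the activity of aldehyde dehydrogenases (ALDH). The 36 genes were chosen by name (lysine acetyltransferases, histone deacetylases, sirtuins and bromodomain proteins), and each matched 1 of the 57914 rows of the deposited tables. They comprise 10 writers, 18 erasers and 8 readers, and all 36 were among the 17047 genes expressed highly enough to be tested. A375 cells grown in high-glucose medium with serum were stained with Aldefluor, a substrate that ALDH enzymes turn into a fluorescent product, and 3 libraries came from the 5% of cells with the strongest signal (ALDH_High) and 3 from the 5% with the weakest (ALDH_Low). Both groups are therefore fractions of the same stained cell line, and the labels name no separate cultures, so p-values measure the spread between these samples, which may be technical. The series asks which transcriptional states accompany high and low levels of ALDH1A3.

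Histone acetylation is a reversible mark. Acetyltransferases move an acetyl group from acetyl-CoA to lysines of the histone tails, which loosens chromatin; deacetylases of the HDAC families, which use zinc, and sirtuins, which consume NAD, take it off again; and bromodomains bind the acetylated lysine and bring further complexes to it. Class I HDACs (HDAC1, HDAC2, HDAC3 and HDAC8) are the main nuclear deacetylases. Class IIa HDACs (HDAC4, HDAC5, HDAC7 and HDAC9) have little catalytic activity of their own, shuttle between nucleus and cytoplasm under kinase control, and act as corepressors of MEF2 and other transcription factors.

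Of the 36 genes, 5 were higher and 2 lower in ALDH_High with an adjusted p below 0.05 in edgeR's quasi-likelihood test (Benjamini-Hochberg adjustment over all genes tested). The higher genes were HDAC5, HDAC9, HDAC4, BRD8 and BRD1, and the lower genes were HDAC7 and HDAC1. These 7 make up 19.4% of the members, against 20.6% of all genes tested in either direction (10.8% higher and 9.83% lower), so their share was near that of the background. In bulk libraries, a smaller fraction of cells that express a gene and less of its RNA per cell cannot be told apart. By role, the erasers held 3 higher and 2 lower genes of 18, the readers 2 higher and 0 lower of 8, and the writers 0 of 10. The median log2 fold change was 0.13 over the members and -0.013 over all genes tested. The median of the absolute log2 fold change was 0.18 over the members and 0.28 over all genes tested.

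**Figure D1:**
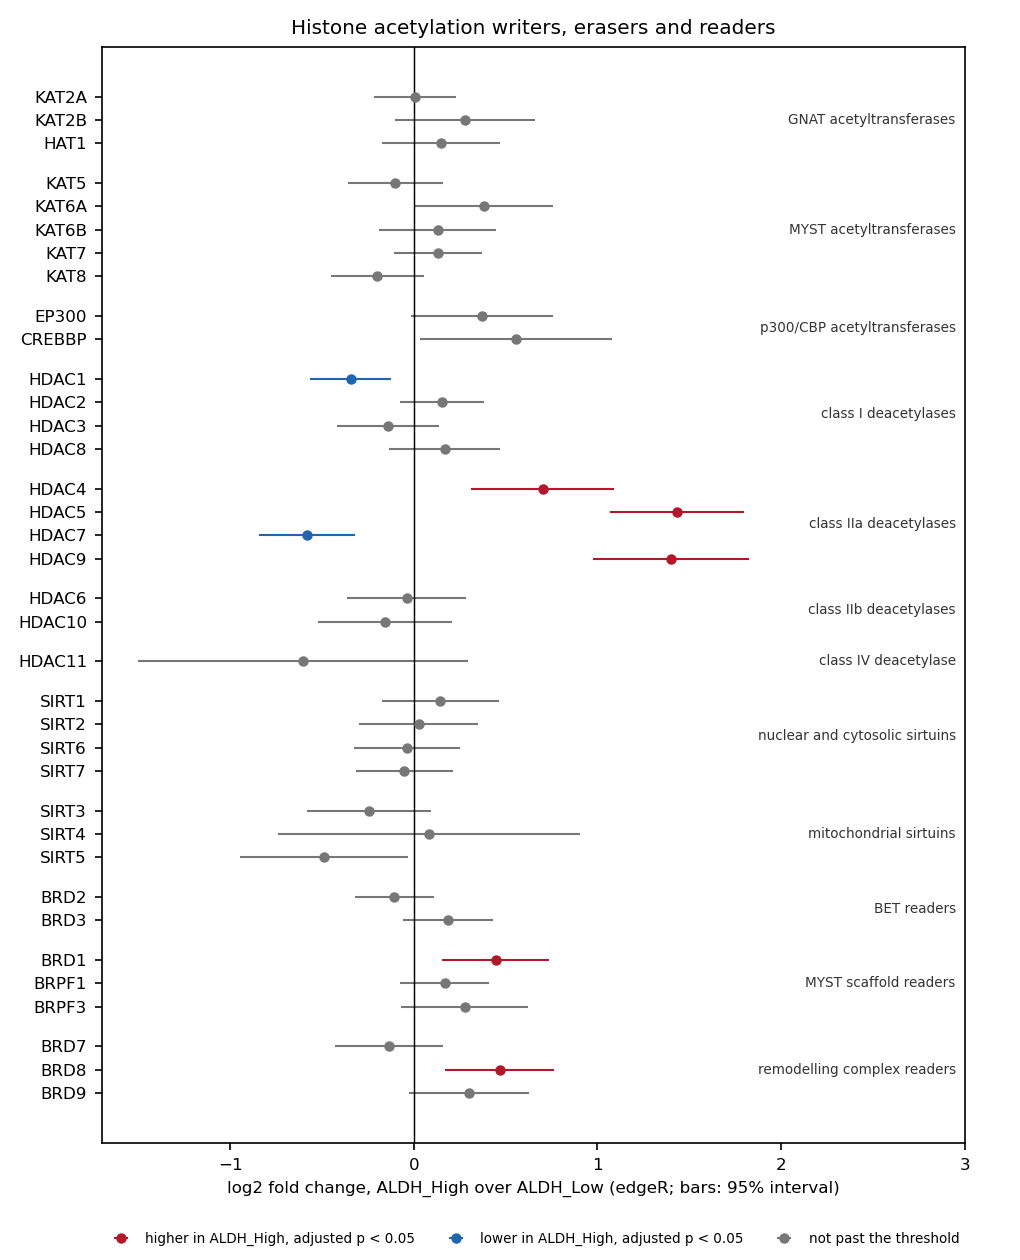
Log2 fold change of ALDH_High over ALDH_Low for the 36 genes (x axis; points, edgeR estimates; bars, 95% intervals), grouped by subfamily, with genes past the threshold in red (higher) or blue (lower). The 4 class IIa deacetylases are all coloured, from -0.58 for HDAC7 to 1.43 for HDAC5, and the 10 writers at the top are all grey.

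The libraries held between 26692868 and 37830603 counts. ALDH1A3 was at 279, 519 and 504 TPM in ALDH_High and at 150, 182 and 165 TPM in ALDH_Low (TPM, a level corrected for gene length and library size). This gene of an ALDH enzyme thus separated the groups in the labelled direction. The log2 fold change was 1.32 (SE 0.19, edgeR adjusted p 0.000734). Of the 7 melanocyte lineage markers, SOX10 and S100B were higher and MITF lower in ALDH_High, while PMEL, MLANA, TYR and DCT stayed below 1 TPM in every library; the summed level of the 7 was 428 to 514 TPM in ALDH_High and 119 to 130 in ALDH_Low. Markers of other cell types were low, with summed levels of 0.098 to 0.306 TPM in ALDH_High and 0.172 to 0.486 in ALDH_Low for 2 endothelial genes. Of the white blood cell genes, PTPRC and CD3E were below 0.2 CPM (counts scaled by library size) throughout, LYZ was at 3.10 to 7.71 TPM in ALDH_High and 0.98 to 1.72 in ALDH_Low, and CD14 was at 0.082 to 0.316 and 0.555 to 0.906 TPM. The 3 epithelial markers summed to 17.1 to 23.2 TPM in ALDH_High and 12.1 to 16.4 in ALDH_Low, most of it KRT14, which did not pass (log2 fold change 0.58, edgeR adjusted p 0.108). KRT5, the only one of the 3 past the threshold, went the other way, at 0.13 ± 0.050 TPM in ALDH_High and 1.67 ± 0.94 in ALDH_Low (SD, n = 3; log2 fold change -3.63, edgeR adjusted p 0.000898). Genes of the G2 and M phases moved with the sort, with 16 of 25 higher (64%, against 10.8% of all genes tested) and 0 lower in ALDH_High. Likewise 0 were lower at an unadjusted edgeR p under 0.05, in DESeq2 and in limma. Their summed level was 3865 to 4525 TPM in ALDH_High against 2474 to 2859 in ALDH_Low. The 3 of them with the smallest p were CDK1, the mitotic kinase (log2 fold change 1.66), UBE2C, a ubiquitin-conjugating enzyme of mitotic exit (1.76), and GTSE1 (1.05), each past the threshold in all 15 alternatives. Of 20 S phase genes, 2 were higher (10%, against 10.8% of all genes tested) and 0 lower (against 9.83%). Their median log2 fold change was -0.037, with 12 below 0, against 8767 of all 17047 genes tested. In DESeq2 3 were higher and 0 lower, and in limma 2 were higher and 0 lower. At an unadjusted edgeR p under 0.05, 4 were higher and 3 lower. The 2 past the threshold in edgeR were TYMS, the thymidylate synthase (0.50, edgeR adjusted p 0.0160), and CDC45, a replicative helicase subunit (0.40, edgeR adjusted p 0.0276). TYMS passed in 14 and CDC45 in 10 of 15 alternatives. The part of these differences in the results on acetylation genes was not tested. ALDH_High library 1 stood apart from the other two of its group on the second principal component (49.1 against -22.0 and -32.5, 14.5% of the variance).

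The class IIa deacetylases held the 3 largest changes among the 36 genes, and all 4 members passed the threshold. HDAC5, a corepressor of MEF2 factors whose nuclear export is signal-dependent, was 2.70-fold higher in ALDH_High; HDAC9 was 2.64-fold higher and HDAC4 1.63-fold higher. HDAC7, the class IIa member known for its roles in endothelial cells and thymocytes, went the other way and was 1.50-fold higher in ALDH_Low. As sequences, the windows of 250 bases before to 50 bases after a RefSeq transcript start are shown for HDAC9, HDAC4 and HDAC7, because these genes of the class moved with the sort in opposite directions (GRCh38.p14; HDAC9 chr7:18509020-18509319, plus strand; HDAC4 chr2:239298481-239298780, minus strand; HDAC7 chr12:47819854-47820153, minus strand; each written 5′ to 3′ in the direction of the gene). Capitals mark matches, on either strand, to GCCNNNGGC (bound by TFAP2 factors), to the E-boxes CACGTG and CATGTG (bound by MITF) and to AACAAT (bound by SOX factors), searched because TFAP2B, MITF and SOX10 differ between the groups.
HDAC9: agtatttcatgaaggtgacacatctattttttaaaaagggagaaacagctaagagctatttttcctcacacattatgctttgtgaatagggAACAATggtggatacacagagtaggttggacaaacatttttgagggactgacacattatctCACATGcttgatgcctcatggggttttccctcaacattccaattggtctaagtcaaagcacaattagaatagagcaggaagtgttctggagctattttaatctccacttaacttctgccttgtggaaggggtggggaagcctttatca
HDAC4: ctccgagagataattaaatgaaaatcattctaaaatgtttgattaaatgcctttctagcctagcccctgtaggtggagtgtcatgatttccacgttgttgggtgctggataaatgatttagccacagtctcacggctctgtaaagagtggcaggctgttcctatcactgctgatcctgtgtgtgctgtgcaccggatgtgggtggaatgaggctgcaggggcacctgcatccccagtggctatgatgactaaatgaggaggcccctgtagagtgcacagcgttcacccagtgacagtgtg
HDAC7: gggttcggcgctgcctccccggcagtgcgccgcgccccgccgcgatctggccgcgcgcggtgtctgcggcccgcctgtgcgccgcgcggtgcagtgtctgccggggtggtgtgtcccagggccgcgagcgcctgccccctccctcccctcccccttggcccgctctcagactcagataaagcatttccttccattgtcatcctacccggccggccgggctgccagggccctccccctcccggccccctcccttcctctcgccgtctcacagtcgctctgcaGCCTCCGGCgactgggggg

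The HDAC9 window holds an AACAAT match that begins at -159 and a CATGTG match, on the other strand, that begins at -98, both counted from the transcript start. The HDAC7 window holds a GCCNNNGGC match at 31, and the HDAC4 window holds none of the 4 motifs. GC content is 40% in the HDAC9 window, 49.3% in that of HDAC4 and 74.7% in that of HDAC7. RefSeq windows were matched for 32 of the 36 genes (not HDAC5, KAT6A, KAT8 and SIRT7). Among these 32, 15 hold GCCNNNGGC, 2 hold CACGTG, 1 holds CATGTG and 3 hold AACAAT (HDAC9, HDAC8 and BRD8). Over 35116 windows of the same length, the share with a match is 23.2% for GCCNNNGGC, 7.26% for CACGTG, 11.1% for CATGTG and 10.1% for AACAAT. Over the 22199 of these that belong to protein-coding genes, as all members are, the shares are 27.3%, 8.34%, 8.93% and 7.43%. All 3 windows lie inside the gene as annotated in GENCODE 44 and not at its outer end, and the deposited counts do not tell which start a transcript used.

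HDAC5 (ENSG00000108840, GRCh38 chromosome 17, 44076746 to 44123702, minus strand) had 43.8, 38.9 and 33.1 TPM in ALDH_High libraries 1, 2 and 3 and 13.4, 16.0 and 12.4 TPM in ALDH_Low libraries 1, 2 and 3. The lowest ALDH_High library lay above the highest ALDH_Low library by more than the range within either group. The log2 fold change was 1.43 (SE 0.16, edgeR adjusted p 0.000218), and HDAC5 passed in all 15 alternative analyses, with log2 fold changes from 1.29 to 1.58. G6PC3, a glucose-6-phosphatase gene on the opposite strand, covers 1826 of the 7618 annotated exon bases of HDAC5, and although the library kit keeps strand, the strand setting of the counting is not given in the sources used here. G6PC3 itself had a log2 fold change of -0.0034 (SE 0.14, edgeR adjusted p 0.990).

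HDAC9 (ENSG00000048052, chromosome 7, 18086949 to 19002416, plus strand), whose isoforms include a truncated MEF2 repressor without the deacetylase domain, had 5.88, 8.05 and 8.17 TPM in ALDH_High and 2.22, 2.94 and 2.91 TPM in ALDH_Low. The groups did not overlap, and within ALDH_High library 1 was the lowest, the reverse of its place for HDAC5. The log2 fold change of HDAC9 was 1.40 (SE 0.19, edgeR adjusted p 0.000616), with 1.18 to 1.51 over the 15 alternatives, all past the threshold. HDAC4 (ENSG00000068024, chromosome 2, 239048168 to 239401654, minus strand), a close relative of HDAC5 that is prominent in muscle and growth plate cartilage, had 4.48, 3.94 and 5.28 TPM in ALDH_High and 2.35, 2.88 and 2.90 TPM in ALDH_Low. Its groups did not overlap either. The log2 fold change of HDAC4 was 0.70 (SE 0.17, edgeR adjusted p 0.0176), and it missed the threshold without ALDH_High library 3 and without ALDH_Low library 1 (highest adjusted p 0.0633).

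HDAC7 (ENSG00000061273, chromosome 12, 47782722 to 47833132, minus strand) had 30.6, 33.4 and 34.2 TPM in ALDH_High and 45.7, 55.2 and 41.2 TPM in ALDH_Low. The 3 ALDH_High libraries were close together and all below the lowest ALDH_Low library. The log2 fold change was -0.58 (SE 0.12, edgeR adjusted p 0.00597), and the call was lost in the 3 limma fits on TPM (highest adjusted p 0.0720). SLC48A1, a haem transporter gene on the opposite strand, shares 30 of the 9928 exon bases of HDAC7 and was also lower (log2 fold change -0.77, SE 0.16, edgeR adjusted p 0.00605). Over the 6 libraries, an exact two-sided permutation test on any single gene whose groups do not overlap gives p = 0.1, the smallest that 3 against 3 samples allow.

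In the authors' deposited table, the log2 coefficient of the high group minus that of the low group is 1.45 for HDAC5, 1.42 for HDAC9, 0.72 for HDAC4 and -0.56 for HDAC7.

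**Figure D2:**
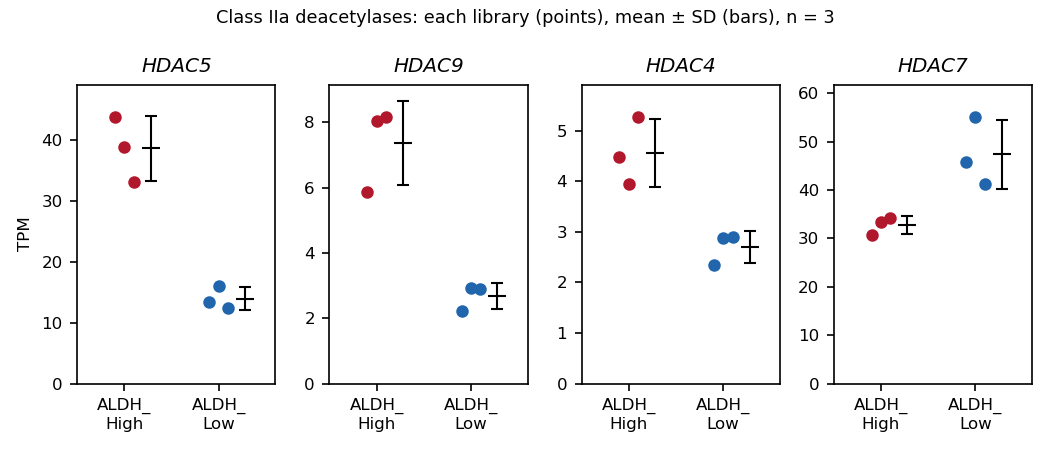
TPM of the 4 class IIa deacetylases (y axes from 0; points, libraries; bars, mean ± SD, n = 3). For HDAC5, HDAC9 and HDAC4 all ALDH_High points lie above all ALDH_Low points, and for HDAC7 all lie below.

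With HDAC7 falling as HDAC5 rose, the makeup of the class differed between the sorted fractions. HDAC5 made up 46.3 ± 5.33% of the summed class IIa TPM in ALDH_High and 20.9 ± 0.13% in ALDH_Low, and HDAC7 made up 39.4 ± 3.12% and 70.9 ± 1.39% (SD, n = 3). HDAC9 made up 8.87 ± 1.70% in ALDH_High and 4.06 ± 0.74% in ALDH_Low. The sum of the class was 84.8, 84.2 and 80.7 TPM in ALDH_High and 63.7, 77.0 and 59.4 TPM in ALDH_Low, so it differed less than its members did. Shares and sums over members are given as descriptions, with no test.

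Among the class I deacetylases, HDAC1 was the only one of the 4 past the threshold. HDAC2, HDAC1 and HDAC3 were the most abundant of the 18 erasers by mean TPM, whereas HDAC8, at 21.3 TPM, was below HDAC7, SIRT6, HDAC5 and SIRT7. HDAC1 and HDAC2 are close paralogs and serve as the catalytic subunits of the SIN3, NuRD and CoREST corepressor complexes. HDAC1 (ENSG00000116478, chromosome 1, 32292083 to 32333635, plus strand) had 98.5, 107 and 106 TPM in ALDH_High and 129, 136 and 118 TPM in ALDH_Low, with no overlap. The log2 fold change of HDAC1 was -0.34 (SE 0.10, edgeR adjusted p 0.0328); it kept its sign in all 15 alternatives, from -0.39 to -0.29, but was past the threshold in 5 of them. It lost the call in each fit without ALDH_High library 2 or 3 or without any single ALDH_Low library (adjusted p up to 0.128), with the replicate number as a block, without a filter on low counts and in the 3 limma fits on TPM.

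HDAC2 had 136, 168 and 152 TPM in ALDH_High and 129, 137 and 129 TPM in ALDH_Low and did not pass (log2 fold change 0.15, 95% interval -0.077 to 0.38, edgeR adjusted p 0.352). In ALDH_Low the paralogs were almost equally abundant, with HDAC1 at 49.2 ± 1.19% of their sum, and in ALDH_High HDAC1 was at 40.7 ± 1.60% (SD, n = 3). HDAC3, the catalytic subunit of the NCoR and SMRT complexes, had log2 fold change -0.14 (95% interval -0.42 to 0.14), and HDAC8, a deacetylase that also acts on cohesin, 0.17 (-0.13 to 0.47). The summed TPM of the 4 class I genes was 346 ± 23.1 in ALDH_High and 350 ± 13.4 in ALDH_Low (SD, n = 3).

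**Figure D3:**
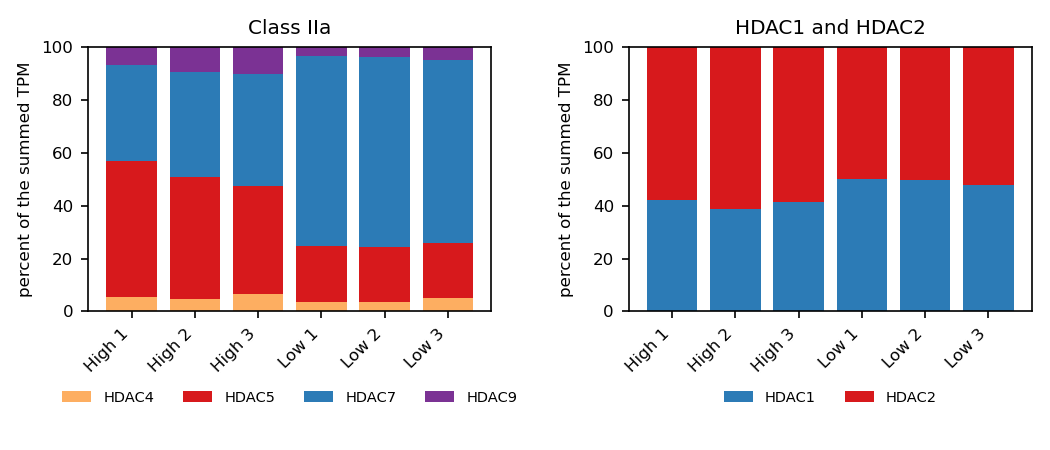
Percent of the summed TPM (y axes) taken by each class IIa deacetylase (left) and by HDAC1 and HDAC2 (right) in the 6 libraries (x axes). HDAC7 takes 36.1% to 42.3% of class IIa in ALDH_High and 69.3% to 71.8% in ALDH_Low, and HDAC1 takes 38.9% to 42.0% and 47.8% to 49.9% of the pair.

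The class IIb and class IV deacetylases did not pass. HDAC6, the cytoplasmic tubulin deacetylase, had a log2 fold change of -0.040 (95% interval -0.36 to 0.28), and HDAC10, a polyamine deacetylase, -0.16 (-0.52 to 0.21). MAPK12 lies on the same strand and shares 2763 of the 4951 exon bases of HDAC10, so reads of HDAC10 are uncertain. MAPK12 itself was lower in ALDH_High (log2 fold change -0.57, SE 0.12, edgeR adjusted p 0.00957). It had up to 1749 counts, against at least 498 for HDAC10. HDAC11, the only class IV enzyme and a remover of long-chain acyl groups, had 4.09, 2.59 and 2.76 TPM in ALDH_High and 8.06, 2.66 and 3.27 TPM in ALDH_Low. ALDH_Low library 1 stood high, and the log2 fold change of -0.60 (edgeR adjusted p 0.348) was 0.048 without that library.

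None of the 7 sirtuins passed in edgeR (adjusted p 0.131 to 0.927), DESeq2 or limma on log2(TPM + 1), and 1 of them, SIRT5, had an unadjusted p under 0.05. SIRT5, the mitochondrial enzyme that removes succinyl and malonyl groups, had 3.10, 2.37 and 2.61 TPM in ALDH_High and 4.21, 3.59 and 3.20 TPM in ALDH_Low. Its groups did not overlap (log2 fold change -0.49, SE 0.21, edgeR adjusted p 0.131). Without ALDH_High library 1 the log2 fold change was -0.65 (edgeR adjusted p 0.0353). A non-coding gene on the opposite strand shares 1058 of the 11295 exon bases of SIRT5. That gene had at most 38 counts, against at least 169 for SIRT5, and a log2 fold change of -1.01 (edgeR adjusted p 0.0735). SIRT3, the main mitochondrial protein deacetylase, likewise did not overlap between groups, at 9.02 ± 0.45 TPM in ALDH_High and 10.3 ± 0.57 in ALDH_Low (SD, n = 3; log2 fold change -0.24, 95% interval -0.58 to 0.096). SIRT4, a mitochondrial sirtuin with lipoamidase activity, was the least abundant of the 36 genes, at 0.83 to 1.25 TPM in ALDH_High and 0.64 to 1.28 in ALDH_Low.

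Among the nuclear and cytosolic sirtuins, SIRT1, which deacetylates p53 and histones, had a log2 fold change of 0.14 (95% interval -0.18 to 0.46). For SIRT2, a mainly cytosolic tubulin deacetylase, the value was 0.026 (-0.30 to 0.35), for SIRT6, a chromatin-bound regulator of glycolytic genes, -0.037 (-0.32 to 0.25), and for SIRT7, a nucleolar sirtuin, -0.051 (-0.31 to 0.21). These intervals lie inside 0.5 on the log2 scale on either side, which bounds but does not exclude smaller differences.

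None of the 10 writers passed in edgeR, DESeq2 or limma on log2(TPM + 1), and 2, CREBBP and KAT6A, had an unadjusted edgeR p under 0.05. Log2 fold changes were above 0 for 8 of the 10, against 8280 of all 17047 genes tested. EP300 and CREBBP are paired coactivators that acetylate enhancer histones. CREBBP had 21.0, 22.3 and 43.3 TPM in ALDH_High and 22.3, 19.3 and 14.9 TPM in ALDH_Low. Only ALDH_High library 3 stood clearly above the ALDH_Low range, and the log2 fold change of 0.56 (SE 0.23, edgeR adjusted p 0.132) was 0.21 without that library; CREBBP passed when no filter on low counts was used (adjusted p 0.000561).

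EP300 had 10.8, 11.2 and 11.8 TPM in ALDH_High and 8.53, 10.9 and 5.95 TPM in ALDH_Low. Here it was ALDH_Low library 3 that stood low, and the log2 fold change of 0.37 (SE 0.17, edgeR adjusted p 0.173) was 0.19 without it and 0.58 (adjusted p 0.0428) without ALDH_Low library 2. KAT6A, the MOZ acetyltransferase of the MYST family, showed the same low value in ALDH_Low library 3, with 6.94, 7.73 and 4.67 TPM in ALDH_Low against 7.06, 9.80 and 9.26 in ALDH_High (log2 fold change 0.38 at an edgeR adjusted p of 0.146, and 0.22 without that library). These are long transcripts. Among the 1689 tested genes with the longest transcripts (at least 7789 bases), the median difference in log2 CPM from the mean of the other libraries of the same group was -0.13 in ALDH_Low library 3 and -0.12 in ALDH_High library 1. The 8 members among them were KAT6A, KAT6B, KAT7, EP300, CREBBP, HDAC2, HDAC4 and HDAC9. Of these 8, 5 had their lowest ALDH_Low value in library 3, against 8 of the other 28 members. For ALDH_High, 3 of the 8 had their lowest value in library 1, against 7 of the other 28. The median log2 fold change was 0.090 over the 1689 genes and -0.16 over the 1691 tested genes with the shortest transcripts. The part of transcript length in the results was not tested.

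The other writers lay closer to 0. KAT2A and KAT2B, the alternative catalytic subunits of the SAGA and ATAC complexes, had log2 fold changes of 0.0056 (95% interval -0.22 to 0.23) and 0.28 (-0.10 to 0.66). HAT1, which acetylates newly made histone H4, had 0.15 (-0.17 to 0.47). KAT5, the catalytic subunit of the TIP60 complex, had -0.10 (-0.36 to 0.16), KAT6B 0.13 (-0.19 to 0.45), KAT7, the enzyme of the HBO1 complexes, 0.13 (-0.11 to 0.37), and KAT8, the histone H4 acetyltransferase of the MSL and NSL complexes, -0.20 (-0.45 to 0.054). KAT8 was the only writer whose groups did not overlap in CPM. RNASEH2C, on the opposite strand, shares 1439 of the 3732 exon bases of KAT5, so that value is uncertain if strand was not used.

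**Figure D4:**
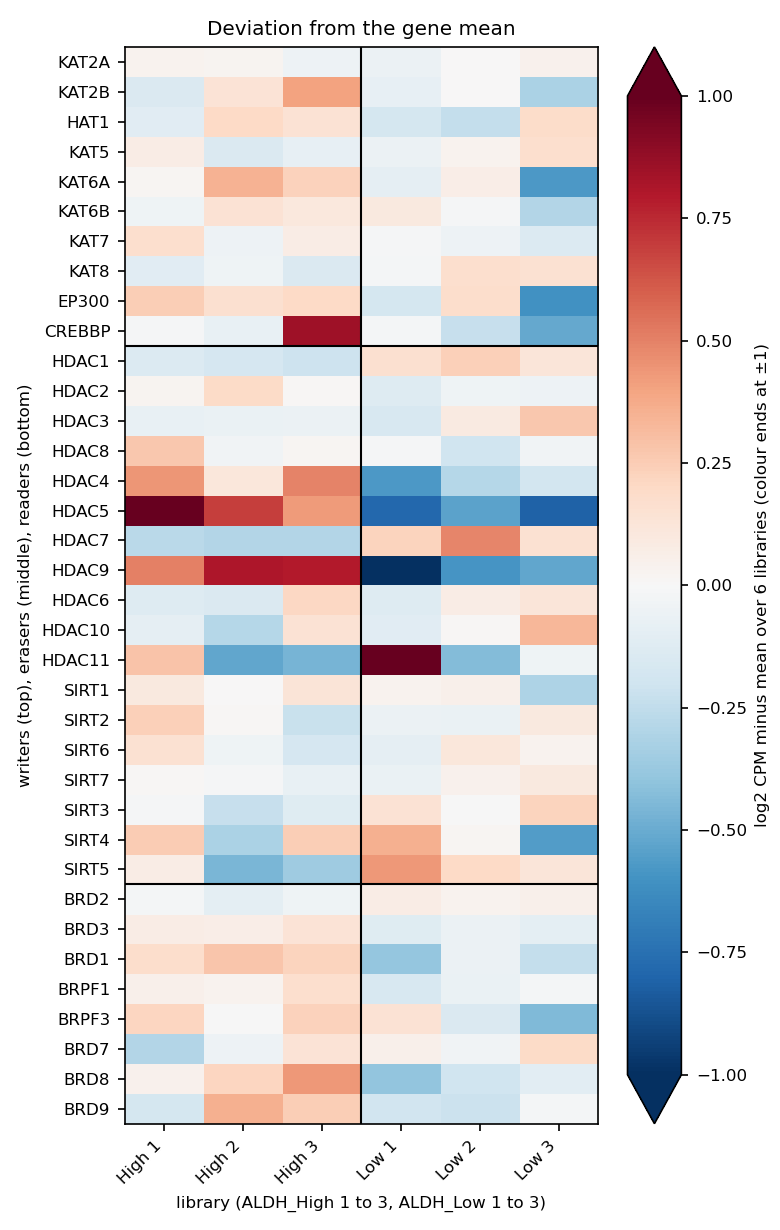
Log2 CPM of each gene minus its mean over the 6 libraries (colour, ending at 1 on either side), with libraries in columns (x axis) and writers, erasers and readers from top to bottom (y axis). HDAC5, HDAC9 and HDAC4 are red in all ALDH_High columns and blue in all ALDH_Low columns, while CREBBP and HDAC11 are dark in 1 library only.

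Among the 8 readers, BRD8 and BRD1 were higher in ALDH_High. BRD8, the bromodomain subunit of the NuA4/TIP60 acetyltransferase complex (ENSG00000112983, chromosome 5, 138139770 to 138178953, minus strand), had 42.6, 53.2 and 63.5 TPM in ALDH_High and 33.5, 38.3 and 38.6 TPM in ALDH_Low. The lowest ALDH_High library was close to the highest ALDH_Low library, though the groups did not overlap. The log2 fold change was 0.47 (SE 0.13, edgeR adjusted p 0.0322), and BRD8 passed in 6 of the 15 alternatives (log2 fold changes 0.37 to 0.57, adjusted p up to 0.154); of the 6 fits without a library it passed only without ALDH_High library 1, and it was lost with upper-quartile factors and in the 3 limma fits on TPM. KIF20A, a mitotic kinesin gene on the opposite strand, shares 132 of the 7009 exon bases of BRD8 and had a log2 fold change of 0.23 (SE 0.14, edgeR adjusted p 0.281).

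BRD1, a scaffold that joins MYST acetyltransferases to chromatin (ENSG00000100425, chromosome 22, 49773283 to 49827873, minus strand), had 8.59, 10.2 and 10.0 TPM in ALDH_High and 6.18, 7.78 and 6.45 TPM in ALDH_Low. Its groups did not overlap, and the log2 fold change of 0.44 (SE 0.13, edgeR adjusted p 0.0368) passed in 7 of the 15 alternatives, with 0.38 to 0.53 and adjusted p up to 0.122. BRD1 lost the call without ALDH_High library 2 or 3, without ALDH_Low library 1 or 3, with upper-quartile factors and in the 3 limma fits on TPM. The related scaffolds BRPF1 and BRPF3 had log2 fold changes of 0.17 (95% interval -0.073 to 0.41) and 0.28 (-0.068 to 0.62) and did not pass.

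BRD9, a subunit of the non-canonical BAF remodelling complex, had 24.4, 39.0 and 37.0 TPM in ALDH_High and 25.6, 25.3 and 27.2 TPM in ALDH_Low. ALDH_High library 1 lay at the level of ALDH_Low and the other two above it, and the log2 fold change of 0.30 (edgeR adjusted p 0.193) was 0.46 (adjusted p 0.0141) without ALDH_High library 1. BRD7, a subunit of the PBAF complex, had -0.13 (95% interval -0.43 to 0.16). ADCY7 on the opposite strand shares 3593 of the 8597 exon bases of BRD7. The log2 fold change of ADCY7 was -0.30 (edgeR adjusted p 0.113). The BET proteins bind acetylated chromatin and recruit the transcription elongation machinery. BRD2 was the most abundant reader, at 122 ± 6.88 TPM in ALDH_High and 127 ± 4.92 in ALDH_Low (SD, n = 3). The log2 fold change of BRD2 was -0.11 (95% interval -0.32 to 0.11), and that of BRD3 was 0.19 (-0.060 to 0.43). BRD3OS on the opposite strand shares 1283 of the 6885 exon bases of BRD3 and had a log2 fold change of -0.37 (edgeR adjusted p 0.0757).

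Counting all members, the CPM groups did not overlap in 14 of 36 genes, 8 with ALDH_High above and 6 below, against 37.8% of all genes tested. Among the 29 members that did not pass, the 95% interval of the log2 fold change lay inside 0.5 on either side for 18. The order of levels within the set was steep. HDAC2 (142 TPM as the mean of 6 libraries), BRD2 (124) and HDAC1 (116) led, followed by HDAC3 (69.2) and HAT1 (67.0), and HDAC4 (3.64), SIRT5 (3.18) and SIRT4 (1.02) came last. The summed TPM of the writers was 306 ± 30.3 in ALDH_High and 279 ± 4.23 in ALDH_Low, that of the erasers 563.5 ± 22.2 and 554 ± 23.9, and that of the readers 321 ± 40.1 and 294 ± 2.81 (SD, n = 3). For writers and readers ALDH_High library 1, at 274 and 278 TPM, lay below the other two ALDH_High libraries and below all ALDH_Low libraries.

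The subunits that the enzymes work with, and the other readers of acetyl-lysine, were followed in 7 lists of 121 genes, of which 119 were tested. Of these, 8 were higher and 8 lower in ALDH_High (13.4%, against 20.6% of all genes tested), with a median log2 fold change of 0.082. By list, the share called in either direction ran from 0% (NuA4/TIP60) to 20% (NuRD, and the CoREST, NCoR and MiDAC list). Among corepressor subunits, the CoREST, NCoR and MiDAC list had 0 higher and 3 lower genes of 15 (1 higher at an unadjusted edgeR p under 0.05, 0 higher in DESeq2 and limma, and 0 lower in limma), with a median of -0.098. TBL1X, an exchange factor of the NCoR complex, was at 27.8 ± 5.78 TPM in ALDH_High and 45.5 ± 6.89 in ALDH_Low (SD, n = 3; log2 fold change -0.77, edgeR adjusted p 0.00385). KDM1A, the histone demethylase that pairs with HDAC1 and HDAC2 in CoREST, had 61.1, 78.0 and 79.6 TPM in ALDH_High and 96.1, 96.9 and 95.6 TPM in ALDH_Low (-0.46, edgeR adjusted p 0.0121). GPS2, a further NCoR subunit, had -0.44 (edgeR adjusted p 0.0444).

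The NuRD list had 1 higher and 1 lower gene of 10 (20%, against 20.6% of all genes tested), with a median of 0.089. CDK2AP1 was higher, at 263 ± 39.9 against 150 ± 11.9 TPM (SD, n = 3; log2 fold change 0.76, edgeR adjusted p 0.00275), and MBD2, the methyl-CpG binding subunit, was lower (-0.71, edgeR adjusted p 0.00701). In the SIN3 list of 15 genes, which had a median of 0.10, the paralogous PHD finger subunits went in opposite directions, with ING1 higher (0.57, edgeR adjusted p 0.0114) and ING2 lower (-0.61, edgeR adjusted p 0.0425). SUPT20H was the 1 higher gene of 19 in the SAGA and ATAC list (5.26%, against 10.8% of all genes tested). Its log2 fold change was 0.37 (edgeR adjusted p 0.0364), and the list median was 0.089. In that list 0 were lower in edgeR and limma, 1 in DESeq2 and 2 at an unadjusted edgeR p under 0.05. Of these genes SUPT20H passed in 4 of 15 alternatives, GPS2 in 6 and ING2 in 7, while CDK2AP1 passed in all 15, ING1 in 14, MBD2 in 13, and TBL1X and KDM1A in 12.

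The MYST complex list had 2 higher and 0 lower genes of 14 (14.3% and 0%, against 10.8% and 9.83% of all genes tested). The 2 higher genes were MSL1 (0.36, edgeR adjusted p 0.0378) and HCFC1 (0.37, edgeR adjusted p 0.0447). At an unadjusted edgeR p under 0.05, in DESeq2 and in limma, 0 were lower. MSL1 passed in 4 of 15 alternatives and HCFC1 in 6. The NuA4/TIP60 list, to which BRD8 belongs by function, had 0 of 15 called in edgeR, against 20.6% of all genes tested. It had 0 in DESeq2 and limma, 2 at an unadjusted edgeR p under 0.05, and a median of 0.047. Among the 31 other acetyl-lysine readers tested, 3 were higher and 3 lower (19.4%, against 20.6% of all genes tested), with a median of 0.11. CECR2, a bromodomain partner of ISWI remodellers, had 0.73, 0.75 and 0.81 TPM in ALDH_High and 0.074, 0.047 and 0.077 TPM in ALDH_Low, a low level with a large difference (3.49, edgeR adjusted p 3.88e-05; 0.73 on the log2(TPM + 1) scale in limma with no TPM filter). ZMYND8, on chromosome 20 (0.69, edgeR adjusted p 0.00121), and MLLT3, a YEATS domain reader (0.71, edgeR adjusted p 0.0389), were higher as well; ZMYND8 passed in all 15 alternatives and MLLT3 in 6.

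The 3 lower readers were SP100 (-0.78, edgeR adjusted p 0.00325), SP140 (-2.25, 0.932 ± 0.55 against 4.30 ± 0.64 TPM, SD, n = 3, edgeR adjusted p 0.00407) and SP140L (-0.75, edgeR adjusted p 0.00877). They are members of the speckled protein family, are linked to interferon responses and lie together on chromosome 2. SP100 passed in 14 of 15 alternatives and SP140 in all 14 that tested it. SP140L passed in 12 of 15 and lost the call in the 3 limma fits on TPM. SP110, a reader of the same list on chromosome 2, did not pass (-0.42, edgeR adjusted p 0.0547).

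**Figure D5:**
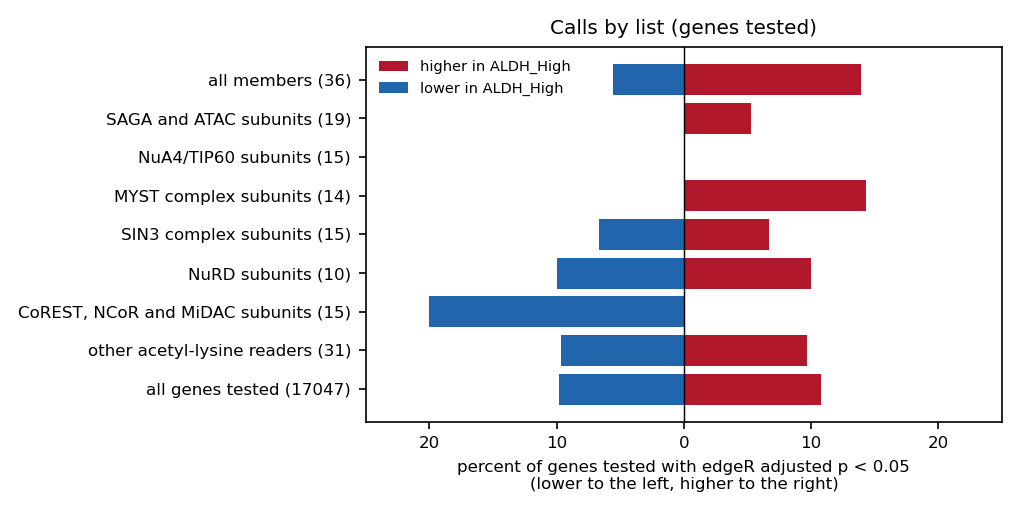
Percent of the genes tested in each list that were higher (red, to the right) or lower (blue, to the left) in ALDH_High at an edgeR adjusted p below 0.05, with the number tested in brackets on the y axis. The 36 members had 13.9% higher and 5.56% lower, and all genes tested had 10.8% and 9.83%.

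The supply of the 2 cofactors was followed as well. None of 6 acetyl-CoA sources passed in edgeR, DESeq2 or limma, and 0 had an unadjusted p under 0.05; ACLY, which makes acetyl-CoA from citrate, had a log2 fold change of 0.045 and ACSS2, which makes it from acetate, 0.41 (edgeR adjusted p 0.210). Of 7 tested genes of NAD supply, 1 was higher and 1 lower (28.6%, against 20.6% of all genes tested). NMNAT2, a NAD synthase of the cytoplasm and Golgi, had 10.4, 16.2 and 15.9 TPM in ALDH_High and 31.1, 31.9 and 27.1 TPM in ALDH_Low, a log2 fold change of -1.14 at an edgeR adjusted p of 0.000419. QPRT, which feeds the pathway from tryptophan, was higher, at 3.96 ± 1.81 against 1.27 ± 0.40 TPM (SD, n = 3). Its log2 fold change was 1.61 (edgeR adjusted p 0.0141). QPRT missed the threshold without ALDH_Low library 2 or 3 and in limma on log2(TPM + 1) with no TPM filter (limma adjusted p 0.0941).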

How the data were processed

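The members and gene lists were chosen with earlier results of these data known. The authors deposited estimated counts rounded to whole numbers (as read from the values: between 133 and 177 genes per library had a count of 0 beside a TPM above 0) and TPM values that sum to the same total in every library. STAR 2.5.1b, HTSeq 0.6.1, DESeq2 and GRCh38 are named, without roles, per the submitters' processing notes; the strand setting and annotation release are not given in the sources used here. Per the file headers, log2 coefficients come from the authors' model of groups against a group named 1A3; 226 rows with shifted cells were not used there.

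Genes were kept with filterByExpr, scaled with TMM and tested on the rounded counts with edgeR 4.0.16 (quasi-likelihood F-test, two-sided, no covariate), Benjamini-Hochberg over 17047 genes, threshold 0.05. SEs were derived from the fold change and the F statistic, and intervals from the matching t distribution. The same script was tested on simulated data. CPM uses TMM-scaled library sizes, except for PTPRC and CD3E, given per total counts; a further marker is not reported here. Fold changes come from counts and levels from TPM. Alternatives were DESeq2 1.42.0, limma 3.58.1 on log2(TPM + 1) or log2(TPM + 0.1) (genes averaging 1 TPM or more, or no TPM filter), other scalings and filters, a replicate block and each library left out. No pair of libraries in a group agreed within sampling noise (chi-square per degree of freedom at least 12.1). Gene positions, exon overlaps and transcript lengths come from GENCODE 44 on GRCh38, the build that the notes name. All members are named, and from each list up to 3 genes with the smallest p per direction past the threshold. ACLY, ACSS2, SP110 and the overlapping genes were chosen after their values were seen. Depth limits precision for counting error only, since reads carry no molecular identifiers.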

Additional observations from a re-analysis of the deposited data

How the results depend on the processing

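HDAC5 and HDAC9 passed in all 15 alternatives each. Over the 36 members and 15 alternatives, 486 of 540 fitted values kept direction and call, 32 lost the call, 4 gained it and 18 changed sign. The number of higher members (5) was 3 with upper-quartile factors and in each of the 3 limma fits on TPM (pseudocounts 1 and 0.1, and no TPM filter), and 2 at an adjusted p below 0.01. The number of lower members (2) was 1 without a low-count filter, with the replicate block and at an adjusted p below 0.01, and 0 in the 3 limma fits. Higher partner genes (8) numbered 4 with upper-quartile factors, 3 in limma with either pseudocount and 3 at an adjusted p below 0.01. Lower partner genes (8) numbered 3, 2 and 1 in the limma fits (pseudocounts 1 and 0.1, and no TPM filter) and 5 at an adjusted p below 0.01. Without 1 library at a time, higher members ran from 2 to 6, lower members from 1 to 3, higher partner genes from 3 to 12 and lower partner genes from 6 to 8; the fewest higher members (2) came without ALDH_High library 3 and without ALDH_Low library 1. Over all genes tested, the share called was 20.6% in the main fit, 23.7% without ALDH_High library 1 and 14.0% to 15.8% without any other library. It was 21.0% with upper-quartile factors, 12.9% without a low-count filter and 22.0% with the replicate block. In the limma fits it was 15.5%, 14.3% and 7.27% (pseudocounts 1 and 0.1, and no TPM filter). The stricter threshold lowers counts by construction. For the rest the cause was not tested.

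The changes of sign were all of values that did not pass. KAT2A was at -0.044 with upper-quartile factors and -0.0083 without ALDH_Low library 1 (range -0.0083 to 0.048). HDAC6 was at 0.0040 in limma with pseudocount 1 (with or without a TPM filter) and 0.0035 with 0.1, and at 0.030, 0.040 and 0.0078 without ALDH_High library 1, ALDH_High library 2 and ALDH_Low library 3 (range without 1 library -0.15 to 0.040). HDAC11 was at 0.048 without ALDH_Low library 1 (range -0.89 to 0.048). SIRT2 was at -0.024 with upper-quartile factors, and -0.078 and -0.0035 without ALDH_High library 1 and ALDH_Low library 2 (range -0.078 to 0.15). SIRT6 was at 0.0088 in limma with pseudocount 1 (with or without a TPM filter), 0.0091 with 0.1, and 0.050 and 0.0097 without ALDH_High library 3 and ALDH_Low library 2 (range -0.11 to 0.050). SIRT4 was at -0.12 without ALDH_Low library 3 (range -0.12 to 0.33).

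The deviations of same-numbered libraries correlated at 0.15, 0.076 and 0.11 across genes, all above 0. As the labels name no covariate, the replicate numbers were not treated as a pairing in the main fit. Correlations between libraries with unlike numbers were not computed for comparison. Whether the replicate numbers mark a pairing was not tested. With the replicate number as a block, 5 members were higher and 1 lower, HDAC1 being the call lost. Over all 17047 genes tested, 3748 were called with the block and 3513 in the main fit. ACLY, ACSS2 and SP110 were not followed over the alternatives. ALDH1A3 and the other genes named from the lists, checked after their values were seen, kept their signs in every alternative that tested them. That was all 15 except for CECR2 (12, log2 fold changes 0.73 to 3.61) and SP140 (14), whose low counts or TPM fell under the stricter filters. Upper-quartile scaling moved the median of all genes from -0.013 to -0.062.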
